A study of Mus musculus with 7 samples.

Results

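RNA of Npm2 and 9 other histone chaperone genes was followed in 7 RNA-seq libraries of mini-oocytes. The genes Npm1, Npm2, Npm3, Nasp, Hira, Asf1a, Asf1b, Chaf1a, Daxx and Atrx were chosen by name from the 55364 genes of the expression table, and each symbol matched 1 gene. All 10 passed the filter on low values, 1 TPM or more in 2 or more libraries, together with 21780 genes in all. TPM is a read count divided by exon length and scaled so that all libraries sum alike, so levels of different genes can be compared within a library.

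Mini-oocytes are oocyte-like cells made by forcing oocyte transcription factors in mouse embryonic stem cells (mESCs). All 3 groups derive from BVSC H18, a female mESC line of hybrid 129/C57BL6 background. In 4F-mESCs the 4 factors Nobox, Figla, Tbpl2 and Lhx8 are fused to a destabilisation domain and are stable in the presence of the ligand Shield-1, and 8F-mESCs add Stat3, Dynll1, Sub1 and Sohlh1. The groups are 4F-mini-oocytes at day 7 (n = 2), 4F-mini-oocytes at day 21 (n = 3) and 8F-mini-oocytes at day 21 (n = 2). All were cultured on laminin with stem cell factor (SCF) and the ROCK inhibitor Y-27632, without ovarian somatic cells, and Shield-1 was left out of fresh medium from day 12. A day 7 library holds a pool of 1000 cells and a day 21 library a pool of 10 cells, so day and pool size cannot be told apart. The 8F-mESCs carry an Npm2-mCherry reporter cassette. How much of the Npm2 gene that cassette holds is not given in the sources used here, and its part in the Npm2 reads was not tested.

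Histone chaperones are proteins that hold histones that are not on DNA and pass them to or from chromatin. NPM2, or nucleoplasmin, is a maternal protein of the oocyte nucleus that binds H2A-H2B dimers through acidic stretches and is needed for the nucleolar and chromatin organisation of oocytes and early embryos. NASP and ASF1 escort H3-H4 dimers, CAF-1 places them behind the replication fork, and HIRA and the ATRX-DAXX pair place the variant H3.3 independently of replication.

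An estimated 9051761 and 11725432 reads lay on genes in the day 7 libraries, 13834414 to 15725208 in the day 21 4F libraries and 16967186 to 17190271 in the 8F libraries. The 10 most abundant genes held 28.5% to 31.8% of the TPM at day 7 and 10.2% to 14.0% at day 21. The summed TPM of 13 oocyte markers was 13334 to 15571 at day 7, 33705 to 36736 in 4F and 29772 to 30730 in 8F libraries at day 21, and 11 of the 13 rose in 4F. The 7 granulosa cell markers summed to at most 5.77 TPM in any library, with Inha listed at 0 in all and Amh at 0 in all 4F libraries. The 7 pluripotency markers summed to 85.8 to 96.9, 243 to 360 and 137 to 178 TPM in the 3 groups, with Sox2 listed at 0 at day 7 and Nanog at 0 at day 21. Most of that rise was Pou5f1, with means of 27.3, 196 and 88.1 TPM. Of the 6 of these markers that were tested, 2 rose and 1 (Zfp42) fell in 4F. The 11 proliferation markers summed to 488 to 544, 1066 to 1178 and 905 to 929 TPM, and 9 of the 11 rose from day 7 to day 21 in 4F. Of all genes tested, 25.3% rose and 15.3% fell in the same test, which is described below. The paper reports that forcing the factors was enough to halt proliferation of the cells. The proliferation marker values are RNA levels, and cell division was not measured here. In pooled cells, a change in the number of cells that express a gene and a change in RNA per cell cannot be told apart. The 4F columns carry up to 9 decimals and the 8F columns up to 17, so number format and factor set cannot be told apart either.

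In 4F-mini-oocytes, 7 of the 10 chaperone genes rose from day 7 to day 21 and none fell. Npm2 rose most, 5.86-fold, followed by Chaf1a (3.78-fold), Asf1b (3.63-fold), Nasp (2.96-fold), Npm1 (2.79-fold), Atrx (2.00-fold) and Asf1a (1.99-fold). Npm3, Daxx and Hira did not pass the test, although Daxx passed as lower under all 3 other scalings tried and Hira under 2 of them. Changes are on the scale of log2(TPM + 1) and were tested with limma at a Benjamini-Hochberg false discovery rate (FDR) of 0.05 over all genes tested. Of all genes tested, 40.6% passed in this comparison, 25.3% higher and 15.3% lower at day 21. The median change of the 10 genes was 1.24, beside 0.17 for all genes tested. The libraries did not overlap between day 7 and day 21 in 4F for the 7 genes that rose and for 2 that were lower at day 21 (Hira and Daxx), where 33.8% and 22.9% of all genes tested did not overlap in these directions. In 8F- against 4F-mini-oocytes at day 21, Npm2, Atrx, Npm1 and Nasp were lower and none of the 10 was higher, where 8.37% of all genes passed, 4.41% lower and 3.95% higher. The summed TPM of the 10 genes was 1482 to 1591 at day 7, 5979 to 6465 in 4F and 3437 to 3451 in 8F at day 21.

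**Figure D1:**
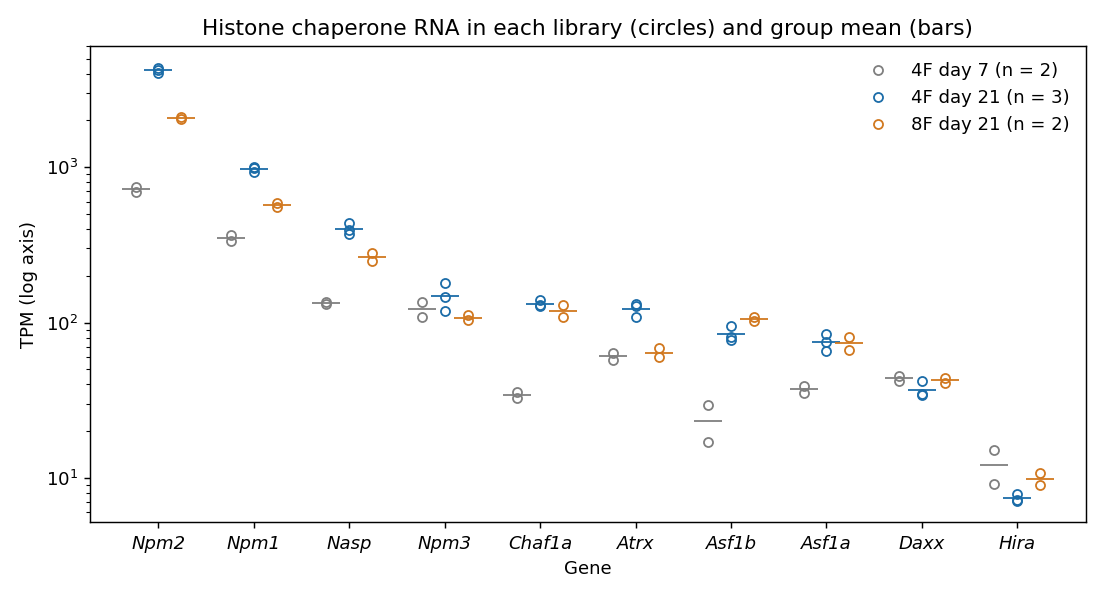
TPM (log axis) of the 10 chaperone genes in each of the 7 libraries (circles), with the mean of each group (short bars): 4F at day 7 (n = 2), 4F at day 21 (n = 3) and 8F at day 21 (n = 2). Npm2 and Npm1 lie above the other 8 genes in all 7 libraries and Hira lies below them, and for Npm2 the 3 groups do not overlap.

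Npm2 (chr14:70647302-70659244, minus strand, in mm10 coordinates with GENCODE vM21 annotation, as for the other genes) was the most abundant of the 10 genes in every library. It was measured at 695 and 743 TPM at day 7, at 4381, 4221 and 4051 TPM in 4F at day 21, and at 2119 and 2053 TPM in 8F at day 21. All 5 day 21 libraries lay above both day 7 libraries, and both 8F libraries lay below all 3 4F libraries of the same day. By mean TPM it ranked 98 among all genes at day 7 (719 ± 33.8, SD), 15 in 4F at day 21 (4217 ± 165) and 31 in 8F (2086 ± 46.9). The log2 change from day 7 to day 21 was 2.55 (SE 0.113, adjusted p = 4.79e-05). Of the exon bases of Npm2, 39 (3.76%) are shared with Xpo7 on the same strand, which lay between 17.3 and 24.3 TPM, and no near copy of Npm2 was found among the annotated transcripts.

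Npm1 (chr11:33152287-33163206, minus strand), the ubiquitous nucleolar family member that acts in ribosome assembly, was next in every library. Its TPM was 333 and 366 at day 7, 996, 1004 and 936 in 4F at day 21, and 551 and 592 in 8F. The groups did not overlap, and 8F lay between the 4F groups. The log2 change from day 7 to day 21 was 1.48 (SE 0.0986, adjusted p = 0.000126). Npm2 was thus 2.03 to 2.08 times as abundant as Npm1 at day 7, counting only reads assigned to Npm1 itself. The ratio was 4.21 to 4.40 in 4F at day 21 and 3.47 to 3.85 in 8F. As a share of the summed TPM of the 3 family genes, Npm2 held 59.7% to 61.1% at day 7, 78.9% to 79.0% in 4F and 74.5% to 76.4% in 8F. Such ratios within a library do not depend on a factor that multiplies the whole library, but quantile normalization can change them.

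Npm1 has 8 annotated pseudogene copies of at least 90% identity over at least 300 bases, and uniquely mapped reads were divided among them as far as their bases differ. The 8 copies summed to 80.7 and 82.1 TPM at day 7, to 773, 757 and 631 TPM in 4F at day 21 and to 172 and 190 TPM in 8F. They lay far above day 7 in every day 21 4F library, and 8F lay in between. With the copies added, a sum made after the values were seen, Npm1 was at 414 and 448 TPM at day 7, 1768, 1761 and 1567 TPM in 4F at day 21 and 723 and 781 TPM in 8F, a log2 difference of means of 1.97 from day 7 to day 21 in place of 1.48 and of -1.17 between 8F and 4F in place of -0.78. Single copies, picked after their values were seen, differed between the groups in unlike ways. Gm9118 (97.3% identical to Npm1) was at 39.4 and 33.4 TPM at day 7, at 374, 341 and 257 TPM in 4F at day 21 and at 86.4 and 92.9 TPM in 8F. Gm5611 (95.1% identical) was at 1.50 and 0.899 TPM at day 7, at 100.3, 79.6 and 74.6 TPM in 4F at day 21 and at 1.11 and 0.935 TPM in 8F. Whether these reads come from the copies or from Npm1 was not tested, and the level of Npm1 is uncertain to that extent. The ratio of Npm2 to Npm1 and the family share of Npm2 are uncertain in the same way. Between 8F and 4F, the log2 difference of Npm1 with its copies (-1.17) was larger than that of Npm2 (-1.01). Counted so, the ratio was no longer lower in 8F than in 4F, and it rose less with day. The study used reads of different lengths on different instruments without naming the libraries on each, and the part of read length in this split was not tested.

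Npm3 (chr19:45747734-45749591, minus strand), the third family member, was at 109 and 136 TPM at day 7, at 179, 119 and 146 TPM in 4F at day 21 and at 104 and 111 TPM in 8F. The day 7 and day 21 4F libraries overlapped, and both 8F libraries lay below all 4F libraries of day 21. Its log2 change from day 7 to day 21 was 0.26, with a 95% interval of -0.19 to 0.71 (adjusted p = 0.310), and the sign turned under the 3 other scalings tried. Npm2 was 5.48 to 6.37 times as abundant as Npm3 at day 7 and 24.5 to 35.4 times in 4F at day 21. Npm3 has 1 annotated pseudogene copy by the same search, at 0.483 to 41.9 TPM across the libraries. It also shares 84 exon bases (7.08%) with Gm15491 on the opposite strand, which lay between 59.3 and 115 TPM. Whether reads of the copy or of the shared bases come from Npm3 was not tested. The level of Npm3 and these ratios are uncertain to that extent.

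Nasp (chr4:116601052-116627941, minus strand), which binds H3 and H3-H4 and protects the soluble pool from degradation, was the third most abundant of the 10 genes in all 7 libraries. In day 7 replicate 2 it lay just above Npm3 (136.5 against 135.5 TPM). Its TPM was 132 and 137 at day 7, 438, 395 and 369 in 4F at day 21 and 250.1 and 280.5 in 8F. The groups did not overlap, with 8F between the 4F groups. The log2 change from day 7 to day 21 was 1.57 (SE 0.111, adjusted p = 0.000156).

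The ASF1 paralogs hand H3-H4 dimers to CAF-1 or HIRA, and ASF1B is the one known to follow cell proliferation. Asf1a (chr10:53596757-53609225, plus strand) was at 35.2 and 39.0 TPM at day 7, at 74.5, 66.0 and 84.6 TPM in 4F at day 21 and at 81.2 and 66.1 TPM in 8F. Asf1b (chr8:83955507-83970197, plus strand) was at 17.0 and 29.4 TPM at day 7, at 95.3, 80.9 and 76.8 TPM in 4F at day 21 and at 108 and 102 TPM in 8F. For both genes every day 21 library lay above both day 7 libraries, with log2 changes in 4F of 0.99 for Asf1a (SE 0.157, adjusted p = 0.00316) and 1.86 for Asf1b (SE 0.230, adjusted p = 0.00119). Asf1b was less abundant than Asf1a at day 7, with a ratio of 0.483 and 0.754, and the ratio was 1.28, 1.23 and 0.908 in 4F at day 21 and 1.33 and 1.54 in 8F. Asf1a shares 1748 exon bases (48.0%) with Mcm9 on the opposite strand, and Mcm9 rose by 1.41 on the log2 scale (adjusted p = 0.0012). No strand setting is stated for the counting, so reads in the shared bases cannot be told apart.

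Chaf1a (chr17:56040439-56072289, plus strand) encodes the large subunit of CAF-1. It was at 35.9 and 32.7 TPM at day 7, at 129, 129 and 140.0 TPM in 4F at day 21 and at 109 and 129 TPM in 8F. Day 7 lay below all other libraries and the day 21 groups overlapped. The log2 change from day 7 to day 21 was 1.92 (SE 0.120, adjusted p = 0.000105). Its partners in CAF-1, which were picked after their values were seen, took different courses. Chaf1b, the middle subunit, was at 11.5 to 14.9 TPM at day 7 and 5.65 to 17.8 TPM in 4F at day 21 (log2 change -0.29, SE 0.438, adjusted p = 0.634), and Rbbp4, the small subunit, was at 51.5 to 59.4 and 49.9 to 54.0 TPM (log2 change -0.10, SE 0.123, adjusted p = 0.555). Rbbp4 passed as lower under the 3 other scalings (-0.44 to -0.67, adjusted p of 0.00286 to 0.029). The close paralog of Rbbp4, Rbbp7, which works with the histone acetyltransferase HAT1 and with deacetylase complexes, rose from 175 to 261 TPM at day 7 to 1509 to 1680 TPM (log2 change 2.90, SE 0.175, adjusted p = 9.59e-05). The ratio of Rbbp7 to Rbbp4 was 2.95 and 5.07 at day 7, 31.7, 27.9 and 33.7 in 4F at day 21 and 20.6 and 23.9 in 8F. Chaf1a was 2.20 to 3.13 times as abundant as Chaf1b at day 7, 7.85 to 22.8 times in 4F at day 21 and 6.54 to 8.27 times in 8F. Chaf1a shares 4648 exon bases (52.5%) with Ubxn6 on the opposite strand, which rose by 1.39 on the log2 scale (adjusted p = 0.0011). RNA of the proliferation markers rose too, from 488 to 544 TPM in sum to 1066 to 1178 TPM. Its part in the change of Chaf1a and Asf1b was not tested. Since the paper reports a halt of proliferation on induction, this rise cannot be read as more cell division.

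Hira (chr16:18877037-18970309, plus strand) encodes the scaffold of the HIRA complex. By the reads assigned to it, Hira was the least abundant of the 10 genes in every library. It was at 15.1 and 9.09 TPM at day 7, at 7.18, 7.85 and 7.14 TPM in 4F at day 21 and at 10.7 and 9.04 TPM in 8F. All 3 day 21 4F libraries lay below the others, and replicate 1 at day 7 stood above the rest. The log2 change from day 7 to day 21 was -0.61, with a 95% interval of -1.33 to 0.11 (adjusted p = 0.158), at 186 to 388 estimated reads per library. Hira shares 2778 exon bases (44.7%) with Gm28539 on the same strand. The sum of both genes, likewise made after the values were seen, was 40.7 and 25.3 TPM at day 7, 20.4, 20.6 and 18.4 TPM in 4F at day 21 and 26.0 and 23.6 TPM in 8F. In day 7 replicate 1 this sum lay above Asf1b (17.0 TPM), Asf1a (35.2 TPM) and Chaf1a (35.9 TPM). In the other libraries it lay below all the other genes described. Of its partners, the subunit gene Ubn1 fell from 113 to 134 TPM to 60.4 to 69.5 TPM (log2 change -0.94, SE 0.125, adjusted p = 0.00156), and Cabin1 rose from 44.8 to 65.4 TPM to 90.8 to 128 TPM (log2 change 0.97, SE 0.215, adjusted p = 0.012). Cabin1 was picked after its values were seen, and it did not pass with quantile normalization (adjusted p = 0.229), with voom (adjusted p = 0.0704) or without day 7 replicate 2 (log2 change 0.70, adjusted p = 0.0755).

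DAXX binds H3.3-H4 and ATRX is the chromatin remodeller that takes it to heterochromatin and telomeres. Atrx (chrX:105797615-105929403, minus strand) was at 63.6 and 57.3 TPM at day 7, at 132, 109 and 127 TPM in 4F at day 21 and at 59.7 and 68.1 TPM in 8F. The 4F libraries at day 21 lay above the others, and the 8F libraries overlapped with day 7. The log2 change in 4F was 1.00 (SE 0.132, adjusted p = 0.00152), and it did not pass with quantile normalization (0.39, adjusted p = 0.0527). Daxx (chr17:33909414-33915590, plus strand) was at 45.5 and 42.2 TPM at day 7, at 34.1, 34.7 and 42.0 TPM in 4F at day 21 and at 43.7 and 41.1 TPM in 8F. All groups lay close together, and the log2 change in 4F was -0.25, with a 95% interval of -0.59 to 0.10 (adjusted p = 0.222). Daxx passed as lower under the 3 other scalings, with median-of-ratios size factors (log2 change -0.59, adjusted p = 0.0146), with quantile normalization (-0.74, adjusted p = 0.00699) and with voom (-0.79, adjusted p = 0.00829). The ratio of Atrx to Daxx was 1.40 and 1.36 at day 7, 3.85, 3.13 and 3.02 in 4F at day 21 and 1.37 and 1.66 in 8F.

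**Figure D2:**
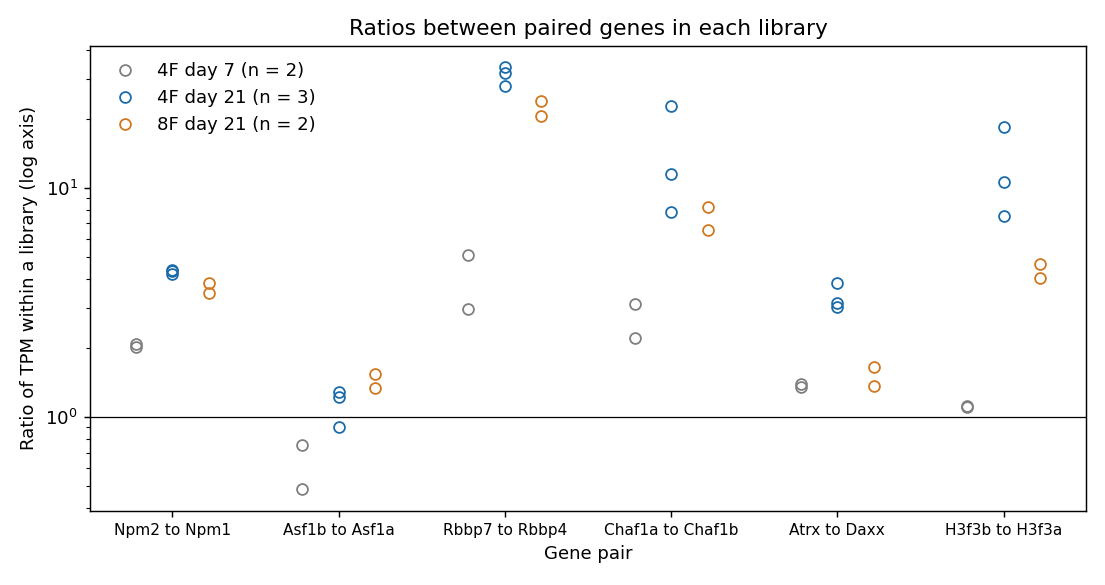
Ratio of TPM within a library (log axis) for 6 gene pairs, with a circle for each of the 7 libraries and the line at a ratio of 1. Rbbp7 to Rbbp4 is 2.95 and 5.07 at day 7 and 27.9 to 33.7 in 4F at day 21, while Atrx to Daxx is 3.02 or more only in the 3 4F libraries at day 21 and 1.66 or less in the other 4.

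The order of the 10 genes changed below Npm2, Npm1 and Nasp. At day 7, Nasp (132 to 137 TPM) and Npm3 (109 to 136 TPM) overlapped, then came Atrx and Daxx, then Asf1a and Chaf1a, which overlapped, then Asf1b and Hira. In 4F at day 21, Npm3, Chaf1a and Atrx overlapped below Nasp, Asf1b and Asf1a overlapped below them, and Daxx and Hira came last. In 8F at day 21, Chaf1a, Npm3 and Asf1b overlapped below Nasp, Asf1a and Atrx overlapped next, and Daxx and Hira again came last. Npm2 alone held 46.7% to 46.9% of the summed TPM of the 10 genes at day 7, 67.7% to 68.5% in 4F at day 21 and 59.5% to 61.7% in 8F.

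The comparison of 8F- with 4F-mini-oocytes at day 21 sets cells of separate engineered mESC lines side by side. The 4 further factors cannot be told apart from other differences between the lines or their libraries. Npm2 was 2.02-fold lower in 8F (log2 change -1.01, SE 0.113, adjusted p = 0.00676), Atrx 1.90-fold lower (log2 change -0.93, SE 0.132, adjusted p = 0.0129), Npm1 1.71-fold lower (log2 change -0.78, SE 0.0986, adjusted p = 0.00949) and Nasp 1.51-fold lower (log2 change -0.59, SE 0.111, adjusted p = 0.0274). The other 6 genes did not pass the test. Their 95% intervals ran from -0.89 to 0.0098 for Npm3, from -0.40 to 0.35 for Asf1a, from -0.23 to 0.87 for Asf1b, from -0.44 to 0.13 for Chaf1a, from -0.35 to 1.09 for Hira and from -0.15 to 0.54 for Daxx, so changes of up to those sizes cannot be told from none. The libraries of the groups did not overlap for 5 genes that were lower and 2 (Asf1b and Hira) that were higher in 8F, where 19.8% and 24.1% of all genes tested did not overlap in these directions. Without 8F replicate 1 or without 8F replicate 2 none of the 4 genes passed, with adjusted p between 0.0821 and 0.219 and between 0.0672 and 0.113, while all 4 had p under 0.05 before adjustment and kept their direction, and the single 8F library left was then assumed to vary like the other groups. Without 4F replicate 1 or 2, Nasp alone was lost (adjusted p = 0.0658 and 0.0676).

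Set beside 4F at day 7, which differs from 8F at day 21 in both day and factors and was not compared by a test, 8F had a mean of 2086 against 719 TPM for Npm2, 265 against 134 TPM for Nasp, 119 against 34.3 TPM for Chaf1a and 105 against 23.2 TPM for Asf1b. Atrx had 63.9 against 60.4 TPM and Daxx 42.4 against 43.9 TPM.

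**Figure D3:**
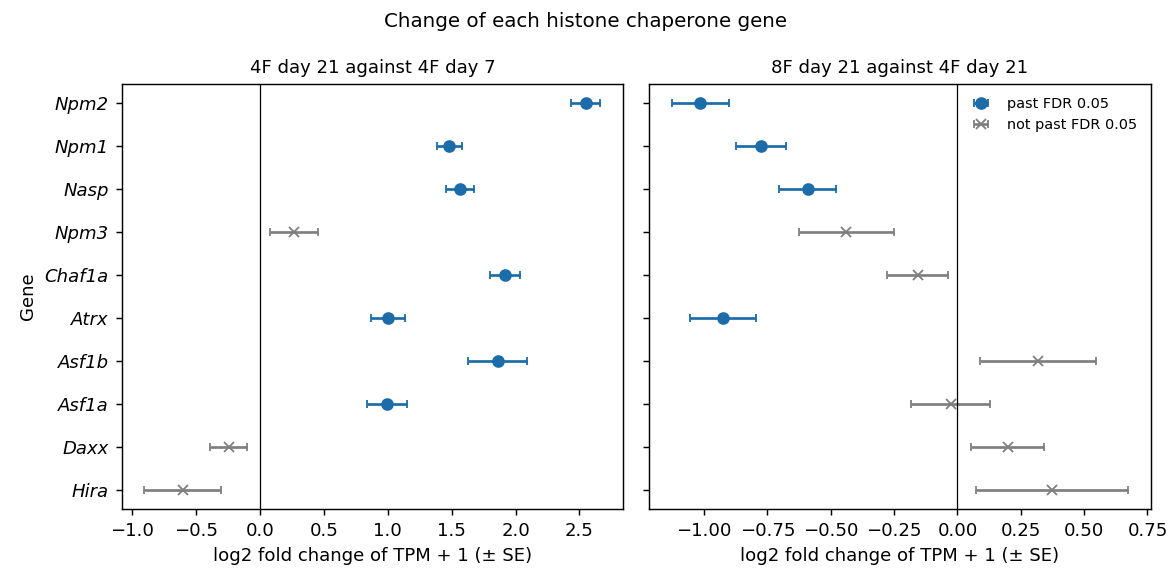
log2 fold change of TPM + 1 with its SE for each of the 10 genes, in 4F at day 21 against 4F at day 7 (left) and 8F against 4F at day 21 (right), with filled circles past FDR 0.05 and crosses not past it. Npm2 has the largest change on both sides, 2.55 and -1.01, and Atrx, at 1.00 and -0.93, lies near the same distance from 0 in both directions.

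Related genes were counted from lists chosen for their roles. Of 18 other H3-H4 chaperones and partners, 9 rose and 1 fell from day 7 to day 21 in 4F, with a median log2 change of 0.54 beside 0.17 for all genes tested. Of all genes 25.3% rose and 15.3% fell, a balance that turned with voom, where 15.3% were called higher and 25.6% lower. Rbbp7 rose most, and Ubn1 was the one that fell. Pole3, a histone-fold subunit of DNA polymerase epsilon that handles parental H3-H4, rose from 64.4 to 66.1 TPM to 330 to 359 TPM (log2 change 2.39, adjusted p = 3.79e-05). It was also the 1 gene of this list that passed as lower in 8F, at 228 TPM in both libraries (log2 change -0.60, SE 0.0883, adjusted p = 0.014). Rbbp7 was at 1034 to 1124 TPM in 8F, a log2 change of -0.57 that did not pass (adjusted p = 0.112) but did under 5 of 18 alternatives. No gene of this list passed as higher in 8F, where 3.95% of all genes tested passed as higher and 4.41% as lower. The median there was -0.08 beside 0.06 for all genes tested.

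The H2A-H2B chaperones are the functional neighbours of NPM2, and 11 of 12 listed genes were tested. In 4F, 7 rose and 1 fell from day 7 to day 21, with a median log2 change of 0.58, against 25.3% and 15.3% of all genes and their median of 0.17. Nap1l3, of the NAP1 family, rose most, from 7.02 to 9.88 TPM to 33.1 to 47.4 TPM (log2 change 2.05, SE 0.231, adjusted p = 0.000829), and Set, an acidic chaperone and phosphatase inhibitor, fell from 122 to 168 TPM to 68.2 to 69.2 TPM (log2 change -1.05, SE 0.170, adjusted p = 0.00346). The FACT subunits, picked after their values were seen, both rose: Supt16 by 0.58 (adjusted p = 0.0043) and Ssrp1 by 0.94 (adjusted p = 0.00496) on the log2 scale. Supt16 did not pass under the 3 other scalings (0.05 to 0.23, adjusted p of 0.121 to 0.640), nor Ssrp1 with quantile normalization or voom (adjusted p = 0.175 and 0.0843). In 8F, 3 of the 11 were lower than in 4F and none was higher, against 4.41% and 3.95% of all genes tested. The median was -0.49 beside 0.06 for all genes. Ncl, the nucleolar protein nucleolin, was at 349 to 365 TPM in 8F and 652 to 741 TPM in 4F (log2 change -0.97, SE 0.106, adjusted p = 0.00655). The other two were Supt16 (log2 change -0.76, adjusted p = 0.0102) and Nap1l1 (log2 change -0.49, adjusted p = 0.0486), which passed under 8 of 18 alternatives.

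Changes of the replacement histone variants went in both directions. Of 8 variants, 2 rose and 3 fell from day 7 to day 21 in 4F, against 25.3% and 15.3% of all genes tested. The median log2 change of the variants was -0.28 beside 0.17 for all genes. H3f3a and H3f3b encode the same H3.3 protein. H3f3a fell from 181 to 208 TPM at day 7 to 19.5 to 52.5 TPM in 4F at day 21 (log2 change -2.47, SE 0.372, adjusted p = 0.00261) and H3f3b rose from 201 to 232 TPM to 361 to 409 TPM (log2 change 0.84, SE 0.108, adjusted p = 0.00138, but 0.30 and 0.0752 with quantile normalization). In 8F both were higher than in 4F, H3f3a at 152 to 166 TPM (log2 change 2.19, SE 0.372, adjusted p = 0.0211) and H3f3b at 673 to 705 TPM (log2 change 0.83, SE 0.108, adjusted p = 0.0105). The ratio of H3f3b to H3f3a was 1.11 and 1.11 at day 7, 10.6, 18.5 and 7.53 in 4F at day 21 and 4.05 and 4.63 in 8F. H2ax, whose product is phosphorylated at DNA breaks, rose from 29.6 to 58.7 TPM to 153 to 157 TPM (log2 change 1.86, SE 0.268, adjusted p = 0.00216). H3.3 genes are known to have processed copies in the genome, and these were not searched for here.

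Of 12 nucleolar factors, 6 rose and 2 fell from day 7 to day 21 in 4F, against 25.3% and 15.3% of all genes, with a median log2 change of 0.38 beside 0.17. Nolc1, a nucleolar phosphoprotein that binds small nucleolar RNPs, rose from 76.0 to 90.8 TPM to 274 to 323 TPM (log2 change 1.81, SE 0.129, adjusted p = 0.000161). Fbl, the methyltransferase fibrillarin, fell from 21.7 to 27.5 TPM to 12.5 to 15.6 TPM (log2 change -0.74, SE 0.217, adjusted p = 0.0343), and it passed under 10 of 18 alternatives, missing without day 7 replicate 1, 4F replicate 1 or 2 at day 21, or either 8F library (adjusted p of 0.0564 to 0.129). In 8F, Nolc1 (log2 change -0.84, SE 0.129, adjusted p = 0.0156) and Dkc1, the pseudouridine synthase dyskerin (log2 change -0.65, SE 0.129, adjusted p = 0.0308), were lower than in 4F and none of the 12 was higher. Of all genes tested, 4.41% were called lower and 3.95% higher there. Without either 8F library, none of the listed genes named here as different in 8F (Pole3, Ncl, Supt16, Nap1l1, H3f3a, H3f3b, Nolc1 and Dkc1) passed, with adjusted p between 0.0557 and 0.279 and changes in the same direction.

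**Figure D4:**
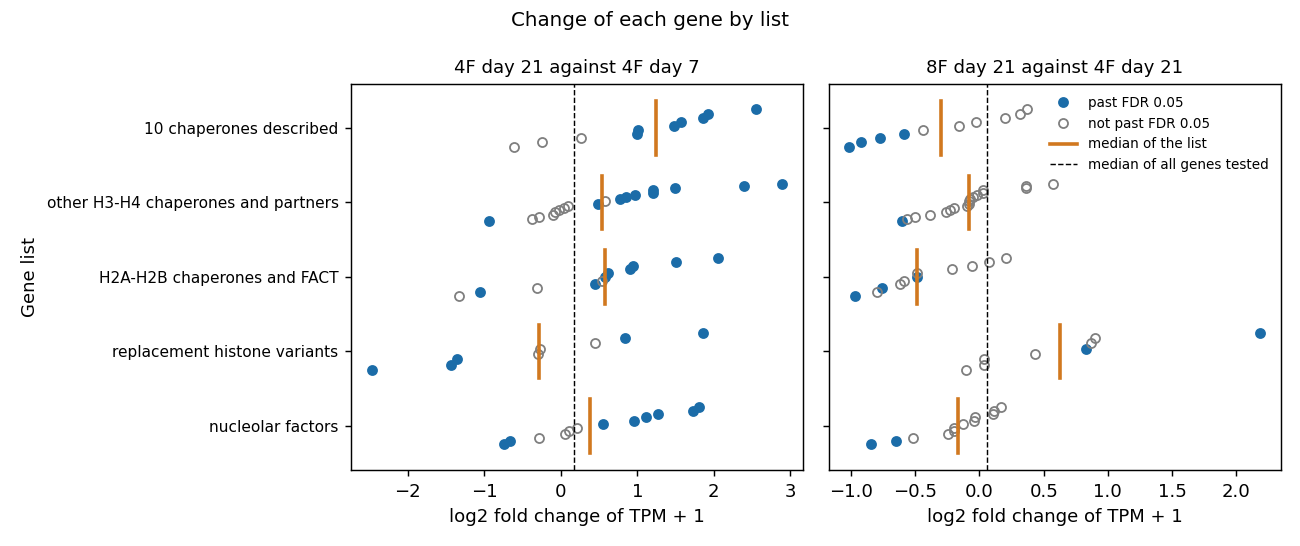
log2 fold change of TPM + 1 of each tested gene by list, for day 21 against day 7 in 4F (left) and 8F against 4F at day 21 (right). Filled circles passed FDR 0.05, open circles did not, orange bars are list medians and dashed lines the median of all genes tested. On the left the 10 chaperones have a median of 1.24 and the histone variants of -0.28, and on the right the variants have the only median of the 5 lists above that of all genes.

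The genes whose pattern was most like that of Npm2 over the 7 libraries were Rufy1, Usp34, Ik, Supt3 and Leo1, all with a Pearson r of log2(TPM + 1) of 0.998. They were ranked among 8253 tested protein-coding genes that averaged 10 TPM or more. Rufy1 had means of 115, 453 and 272 TPM and Leo1 of 51.3, 206 and 115 TPM in 4F at day 7, 4F at day 21 and 8F at day 21. Among the chaperones, Nasp ranked 17 (r = 0.994), Npm1 71 (r = 0.988), Chaf1a 893 (r = 0.937) and Asf1a 1720 (r = 0.891). Atrx ranked 2364 (r = 0.846), Asf1b 2512 (r = 0.833), Npm3 4793 (r = 0.436) and Daxx 7306 (r = -0.717). Hira averaged less than 10 TPM and was not ranked. The 7 points are 3 groups and share their libraries, so these values describe the likeness and carry no test.

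RefSeq promoter windows (250 bases before to 50 after the start, mm10) were at hand for 8 of the 10 genes, 10 windows in all since Daxx has 3 overlapping ones. The E-box CANNTG, the kind of site that Figla binds, was present on either strand in 8 of the 10 windows (6 of the 8 genes) and in 72.3% of 32851 windows of that length. TAATTG, a homeobox-type site, was in 1 window (Atrx) against 8.00% of all, and TAATTA and the TATA box TATAAA were in none, against 5.29% and 13.6%. The E2F-type site TTGGCGC was in 1 window (Atrx) against 2.45% of all and TTCGCGC in none against 1.59%. The ratio of observed to predicted CpG in the 10 windows was 0.583 to 1.08, beside a median of 0.384 for all windows. The windows of Npm1 and Npm2 were not among those analysed here.

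Scaling moved the changes between day 7 and day 21, and not by the same amount for each gene. The median change of all genes tested was 0.17 with the TPM as deposited, -0.06 with median-of-ratios size factors, 0.04 with quantile normalization and -0.32 in a voom fit on estimated reads. Of all genes tested, 25.3% were called higher and 15.3% lower with the TPM as deposited. With median-of-ratios size factors 39.6% were called, 19.2% higher and 20.4% lower. With quantile normalization 38.4% were called, 20.0% higher and 18.4% lower, and with voom 40.9%, 15.3% higher and 25.6% lower. Relative to the median, Npm2 changed by 2.38, 2.27, 2.43 and 2.33 in these 4 fits, Chaf1a by 1.75, 1.64, 1.36 and 1.74, Nasp by 1.40, 1.29, 0.93 and 1.36, and Npm1 by 1.31, 1.20, 1.07 and 1.26. These 4 genes and Asf1b passed in all 4 fits. Asf1a did not pass after quantile normalization (adjusted p = 0.0539) or with voom (adjusted p = 0.0876). Hira passed as lower with median-of-ratios size factors (-0.92, adjusted p = 0.0439), with voom (-1.16, adjusted p = 0.0128) and without day 7 replicate 2. Npm3 turned to -0.08, -0.36 and -0.28 under the 3 other scalings. Between 8F and 4F, the median of all genes was 0.06, 0.06, -0.03 and 0.26 in the same order, and Npm2, Npm1, Nasp and Atrx were lower in all 4 fits. Of all genes, 3.95% were called higher and 4.41% lower with the TPM as deposited. The share called was 7.70% with median-of-ratios size factors (3.93% lower), 6.64% with quantile normalization (3.68% lower) and 10.3% with voom (6.41% higher and 3.87% lower).

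**Figure D5:**
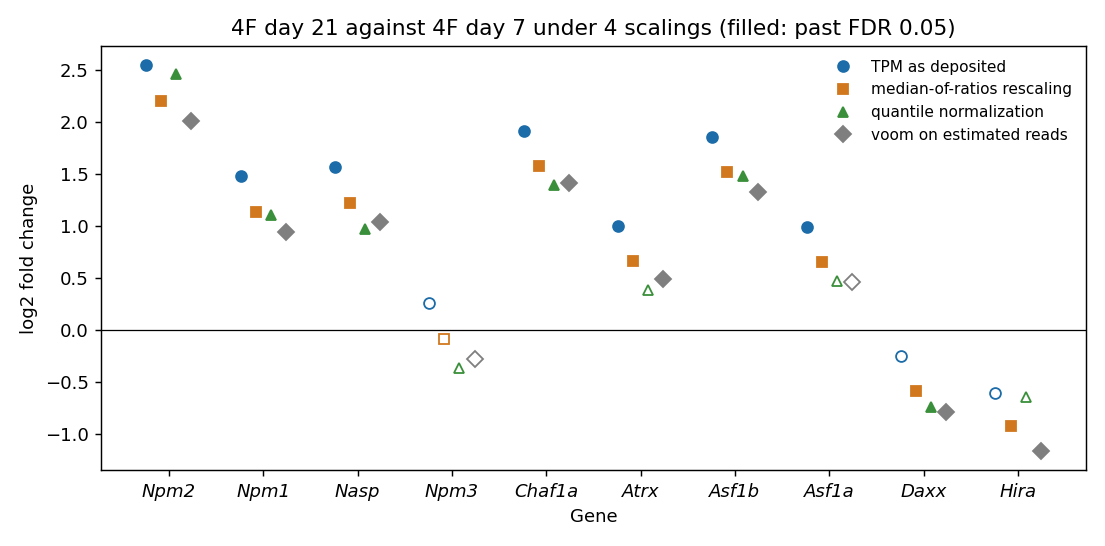
log2 fold change between day 7 and day 21 in 4F for the 10 chaperone genes under 4 scalings (deposited TPM, median-of-ratios, quantile, voom on estimated reads), filled where past FDR 0.05. Npm2, Npm1, Nasp, Chaf1a and Asf1b are filled under all 4, Npm3 lies on both sides of 0 and is open throughout, and Daxx is filled below 0 under all but the TPM as deposited.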

How the data were processed

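Paired-end RNA-seq libraries were made by the authors with the SMART-seq Stranded kit (5 and 13 amplification cycles). The authors clipped 3 bases from read 2 with Trim Galore!, aligned with Hisat2 (mm10), took out rRNA-derived reads with Bedtools, and assigned the uniquely mapped remainder to GENCODE vM25 genes with featureCounts, dividing a read among overlapping genes with no strand option stated. The authors deposited TPM, and tool versions are not given in the sources used here. The authors tested counts with edgeR, which was not used here because those counts were not analysed.

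Testing used limma (version 3.58.1, R 4.3.3) on log2(TPM + 1), with lmFit and eBayes with trend, two-sided, all 7 libraries and 3 groups in 1 fit, over the 21780 genes that reached 1 TPM in 2 or more libraries, with Benjamini-Hochberg adjustment at FDR 0.05. A fold change on this scale understates the change of genes with low TPM. Groups and replicate numbers are those of the labels. Nothing there says whether replicates are separate cultures, so p-values measure the spread between these samples, which may be technical. Whether equal replicate numbers pair the samples is not known, and the main fit did not use them.

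The genes described and the lists were chosen with earlier results of these data known. List genes named in the text are those past FDR 0.05 with the largest rise or fall with no overlap between groups and a mean of 5 TPM or more in the higher one. Chaf1b, Rbbp4, Cabin1, Ssrp1, Supt16, Nap1l1, H3f3b and Dkc1, Pole3 for the change with day and Rbbp7 for 8F against 4F were chosen after their values were seen. Reads were estimated from the steps of low TPM values and GENCODE vM21 exon lengths, which matched 54312 genes (98.1%). The 95% intervals of changes come from the limma fit and cover the spread between libraries. Estimated read numbers bear on counting error only, and amplified reads are not independent molecules. Near copies were searched with blastn 2.17.0. Simulated data were made for day 21 minus day 7 in 4F (20192 genes, 200 changed). Of 100 genes changed by 1 log2 unit 11 were recovered, and of 100 changed by 2 units 89. There, 19 unchanged genes were called, and 8 genes were called when none was changed. The simulated spread was preset and not taken from these libraries, and far fewer genes changed than were called here. The counts therefore do not give the share of real changes found. Alternatives were other pseudocounts, filters, scalings, weights and fits, and each library left out in turn.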

Additional observations from a re-analysis of the deposited data

How the results depend on the processing

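For the change from day 7 to day 21 in 4F, 6 to 9 of the 10 genes passed under all alternatives, 7 or 8 with a library left out, and the 7 called genes kept their direction throughout. For 8F against 4F at day 21, the 4 called genes kept their direction under all alternatives but not their calls. Without the trend in eBayes 1 of the 10 genes (Npm2) and 994 genes in all passed, and with array weights 3572 genes in all. Leaving out a library gave 0 to 4 of the 10 genes and 306 to 2221 genes in all, lowest without 8F replicate 1 and then without 8F replicate 2 (357), and 943, 924 and 1021 without 4F replicate 1, 2 or 3, so this comparison rests on few libraries.

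With the replicate number as a replicate block, 0 of the 10 genes passed between 8F and 4F with limma (4 at an unadjusted p under 0.05, adjusted p of 0.0687 to 0.104; voom, fitted without the block, called 4) and 164 genes in all, while 7 passed between day 7 and day 21. Deviations of libraries with the same number had correlations of -0.037 to 0.011. In a group of 2 libraries the deviations mirror each other, so these few values cannot decide whether the numbers pair the samples. The 4F replicate 3, alone with its number, adds nothing to that fit.

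Signs that turned all belong to changes that did not pass. For day 21 minus day 7, Npm3 was -0.082 with median-of-ratios size factors, -0.36 under quantile normalization and -0.28 with voom, and with a library left out Chaf1b ranged from -0.65 to 0.11 and Rbbp4 from -0.20 to 0.0014. For 8F minus 4F, Asf1a was 0.019 under quantile normalization, 0.12 with voom and 0.062 with the replicate block, and ranged from -0.17 to 0.12 with a library left out. The cause was not tested. Depth limits Hira, at 186 to 388 estimated reads, and Asf1b at day 7, with a lowest of 156.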
